A study of Mus musculus with 24 samples.

Results

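The cerebellum of double-mutant mice was compared with the cerebral cortex of double-mutant mice, to describe how the identity of the 2 brain regions stood in animals that lack both Atm and Aptx. The members were the 6 double-mutant cerebellum libraries and the 6 double-mutant cortex libraries, 12 of the 24 libraries of the series, chosen by their labels. Tables of both regions were joined by gene symbol, and libraries were paired by the TS code that both libraries of a pair carry in their labels. A pair was taken as 1 mouse throughout, which the labels do not state. Genes with at least 1 FPKM in at least 6 of the 12 libraries were tested. FPKM counts sequenced fragments per kilobase of a gene and in proportion to the fragments of the library. This left 12948 of 22562 genes.

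The double mutants (Atm Nes-cre; Aptx-/-) carried a germline loss of Aptx, and Atm was removed by a Nestin-driven cre, which acts in neural progenitors and therefore in neurons and most glia but not in blood vessels or microglia. They were 10-month-old, ataxic mice of either sex. Controls were littermates, labelled only as control and called wild type by the study. The 4 control cerebellum and 4 control cortex libraries were used only to set the regional difference of the double mutants beside that of controls. Each library came from whole cerebellum or from cortex, and how the cortex was dissected is not given in the sources used here.

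ATM is a protein kinase that signals DNA double-strand breaks, and APTX (aprataxin) removes AMP from the ends of broken DNA strands during single-strand break repair. The human genes are mutated in inherited ataxias that affect the cerebellum. The cerebellar cortex is built mainly from granule neurons, the smallest and most numerous neurons of the brain, which send excitatory fibres to Purkinje cells. Purkinje cells are inhibitory and are the sole output of the cerebellar cortex. The cerebral cortex holds layered excitatory projection neurons and several classes of inhibitory interneuron. In bulk tissue, fewer cells of a type and less RNA per cell cannot be told apart. The study counted Purkinje cells directly and reported that the lower ITPR1 and CA8 of double-mutant cerebellum did not go with a loss of these cells.

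The promoters of 3 genes are shown because these genes are among those that separate the regions most: Gabra6, whose product is the granule neuron subunit of the GABA-A receptor, Pcp2, a Purkinje cell gene, and Nrgn, which encodes the calmodulin-binding protein neurogranin of forebrain excitatory neurons. Each sequence runs from 250 bases before to 50 bases after the RefSeq start, 5′ to 3′ on the minus strand, in build GRCm38.p6. Capitals mark the letters CAGATG or their reverse complement CATCTG, the E-box that Neurod proteins are known to bind.
Gabra6, chr11:42321023-42321322: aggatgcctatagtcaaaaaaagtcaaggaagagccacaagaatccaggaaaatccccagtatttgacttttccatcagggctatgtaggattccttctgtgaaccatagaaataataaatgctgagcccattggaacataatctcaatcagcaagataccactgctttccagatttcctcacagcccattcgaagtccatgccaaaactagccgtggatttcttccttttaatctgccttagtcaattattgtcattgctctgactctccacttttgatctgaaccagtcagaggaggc
Pcp2, chr8:3625498-3625797: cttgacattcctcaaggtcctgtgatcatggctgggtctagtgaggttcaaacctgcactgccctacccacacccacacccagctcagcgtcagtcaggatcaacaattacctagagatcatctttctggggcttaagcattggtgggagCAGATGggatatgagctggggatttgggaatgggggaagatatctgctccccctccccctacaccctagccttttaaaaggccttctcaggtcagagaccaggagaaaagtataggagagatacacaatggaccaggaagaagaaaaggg
Nrgn, chr9:37552696-37552995: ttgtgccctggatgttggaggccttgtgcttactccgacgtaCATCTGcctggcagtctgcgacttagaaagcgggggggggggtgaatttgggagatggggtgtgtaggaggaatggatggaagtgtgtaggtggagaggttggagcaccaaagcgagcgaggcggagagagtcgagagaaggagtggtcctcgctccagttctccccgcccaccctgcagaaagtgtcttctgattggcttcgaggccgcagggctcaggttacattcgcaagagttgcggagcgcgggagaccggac
The CAGATG letters stood on either strand in 17.2% of 27025 mouse promoters of the same length. Of the 12 genes most shifted to cerebellum, 8 had a promoter in the table and 2 of these, Cnpy1 and Pcp2, held the letters. Of the 12 most shifted to cortex, 7 had a promoter and Nrgn alone held them. The letters TATAAA (14.2% of all promoters) and the NFI palindrome TGGCNNNNNGCCA (0.755%), searched on both strands, were in none of these 15 windows. The counts are a description of these windows.

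Both tissue labels matched the leading markers. Gabra6 was at 251 FPKM or more in each double-mutant cerebellum library and at 1.003 FPKM or less in each cortex library, and Camk2a, the alpha subunit of the calcium/calmodulin kinase of forebrain neurons, was at 172 FPKM or more in cortex against 5.36 FPKM or less in cerebellum. Pairs of libraries within a region had Pearson correlations across genes of 0.977 to 0.993 in cerebellum and 0.989 to 0.993 in cortex, and pairs between regions of 0.819 to 0.850. The first principal component separated the regions and held 90.3% of the variance. Double mutant 4 stood apart in cerebellum: Nrgn was at 7.18 FPKM there and at 0.916 FPKM or less in the other 5. The source of this RNA was not tested. Double mutant 6 stood apart in number format and in Y-linked RNA: Ddx3y, a Y-linked helicase gene, was at 2.30 FPKM in its cerebellum and 8.24 FPKM in its cortex, between pairs at 0.103 FPKM or less and pairs at 19.9 FPKM or more. Counts without each of these mice are given for some results, not for every count that moved. In each of the 36 gene lists with a tested gene, leaving out either mouse moved the count past both thresholds on a side by at most 1 gene. Counts of genes whose regional difference was called different from controls moved by up to 5 genes without double mutant 4. Without double mutant 6 they moved by up to 3.

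The deposited tables give FPKM and no read counts, which leaves the sequencing depth unknown, and intervals for counting error could not be had. In the 5 other double mutants the low values moved in whole read steps, which put their relative depth between 0.787 and 1.33. Double mutant 6 and the 8 control libraries did not move in such steps, and 98.5% or more of their values were written with over 10 significant digits, compared with 0.0448% or less in the columns of mice 1 to 5. Control and double-mutant libraries also carry different series codes. The summed FPKM of control cortex 4 was 554380, against 239529 to 246683 in the other control cortex libraries. Its median over the tested genes was 7.75 FPKM, against 7.86 to 8.13 FPKM in those. The 8 control libraries had Ddx3y at 0.0532 FPKM or less, while 3 of the 6 double mutants had high levels. Genotype and series code cannot be told apart. Double mutants 1 and 4 were like the controls in Ddx3y, and double mutant 6 was like them in number format. The regional difference inside the double mutants pairs libraries that share a TS code, taken as 1 mouse.

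Atm and Aptx were read in every library. Atm was at 7.59, 8.14 and 9.14 FPKM (lowest, median, highest) in double-mutant cerebellum and at 5.31, 5.70 and 6.02 FPKM in double-mutant cortex, against 6.75 to 7.13 FPKM in control cerebellum and 5.03 to 5.61 FPKM in control cortex. The gene-level value covers exons that a conditional allele keeps and therefore does not check the deletion. Atm was higher in cerebellum than in cortex in the double mutants (log2 difference 0.46, SE 0.05, adjusted p = 7.57e-06). Aptx was at 2.09, 2.36 and 2.86 FPKM in double-mutant cerebellum and 2.53, 2.68 and 3.002 FPKM in double-mutant cortex, below 3.11 to 3.59 FPKM in control cerebellum and 4.26 to 4.53 FPKM in control cortex. The 2 regions overlapped for Aptx in the double mutants (log2 difference -0.13, SE 0.06, adjusted p = 0.0599).

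The regional difference was broad. Of 12948 genes, 10335 (79.8%) differed between double-mutant cerebellum and cortex at an adjusted p below 0.05, 6172 higher in cerebellum (47.7%) and 4163 higher in cortex (32.2%), and 2613 were not called. Most of these differences were small, with a median absolute log2 difference of 0.48 among the called genes. The strict set, which also had an absolute log2 difference above 1, held 1989 genes: 881 higher in cerebellum (6.8% of genes tested) and 1108 higher in cortex (8.56%). All 6 cerebellum libraries lay above all 6 cortex libraries for 4295 genes and below them for 3152 genes, 57.5% of genes in all.

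The strict set held 2029 genes (932 higher in cerebellum, 1097 higher in cortex) without double mutant 4 and 1980 genes (876 and 1104) without double mutant 6. The median log2 difference over all genes was 0.11. Rescaling the libraries to the same median moved it to 0.01. The cortex share of called genes was then 49.2%, against 40.3% as deposited, and that of the strict set 62.6%, against 55.7%. Other settings lowered the cortex share of the strict set. It was 51.3% with 0.1 and 50.6% with 0.01 added to FPKM in place of 1. With at least 1 FPKM required in all 12 libraries it was 52.3%. Of the genes tested, 679 reached 1 FPKM in no library of 1 region, so they passed the filter through the other region alone, and 465 of them were in the strict set.

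The genes most shifted to cerebellum were markers of its granule neurons and Purkinje cells. Gabra6 (NCBIM37, the mm9 assembly, chromosome 11, 42119939 to 42134574, minus strand) was at 251, 267 and 288 FPKM (lowest, median, highest) in cerebellum and at 0.0530, 0.298 and 1.003 FPKM in cortex. The groups were far apart, with means 659-fold apart and a log2 difference of 7.62 on the log2(FPKM + 1) scale (SE 0.09, adjusted p = 4.33e-13). Cbln3 (chromosome 14, 56497757 to 56503093, minus strand), a granule neuron cerebellin that travels to the synapse with Cbln1, was at 144 to 202 FPKM in cerebellum and 0.161 to 0.518 FPKM in cortex, a log2 difference of 7.10. The other granule neuron genes among the 12 were Fat2 (6.32), a giant protocadherin of parallel fibres, Zic1 (4.91) and Neurod1 (4.72), transcription factors of granule neurons, and Cbln1 (4.66), the synapse organiser that binds delta glutamate receptors.

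Purkinje cell genes among the 12 were Ppp1r17 (log2 difference 5.27), a phosphatase inhibitor and substrate of cGMP-dependent kinase, Pcp2 (5.17), a regulator of G proteins, and Car8 (5.06), a carbonic anhydrase-related protein that binds the IP3 receptor. Pcp2 was at 39.8, 45.5 and 47.6 FPKM in cerebellum and 0.210, 0.256 and 0.392 FPKM in cortex, a ratio of means of 161. Cnpy1 (6.87), which modulates fibroblast growth factor signalling at the midbrain-hindbrain border in zebrafish, Crtam (4.87), a cell adhesion receptor known from T cells, and Arhgef33 (4.54) completed the 12. The rule that chose the 12 admitted only genes without overlap between regions.

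At the other end, Ddn (chromosome 15, 98634213 to 98638356, minus strand), which encodes the postsynaptic protein dendrin, was at 0.0558, 0.135 and 0.424 FPKM in cerebellum and 139.8, 152 and 162 FPKM in cortex. The groups did not overlap, with a mean in cortex 867-fold that in cerebellum and a log2 difference of -7.02 (SE 0.07, adjusted p = 3.73e-13). Nrgn (chromosome 9, 37352078 to 37360330, minus strand) was at 0.297, 0.827 and 7.18 FPKM in cerebellum and 167, 220.2 and 275 FPKM in cortex (log2 difference -6.69, SE 0.33, adjusted p = 8.84e-09). The highest cerebellar Nrgn value was that of double mutant 4, and the log2 difference lay between -7.45 and -4.36 over the 6 mice.

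The other 10 of the 12 genes most shifted to cortex had log2 differences from -5.89 to -4.91, and were chosen by the same rule. Camkv (-5.89), a kinase-like protein that binds calmodulin, Ptk2b (-5.65), a calcium-activated tyrosine kinase, and Camk2a (-5.43) act in calcium signalling. Stx1a (-5.09) encodes the syntaxin of synaptic vesicle fusion, Kcnj4 (-5.01) an inward rectifier potassium channel, Basp1 (-4.91) a growth cone protein and Gda (-5.39) guanine deaminase. Enc1 (-5.41), an actin-binding protein, Mal2 (-5.22), a membrane traffic protein, and Sst (-5.36), the peptide somatostatin of cortical interneurons, were the rest.

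**Figure D1:**
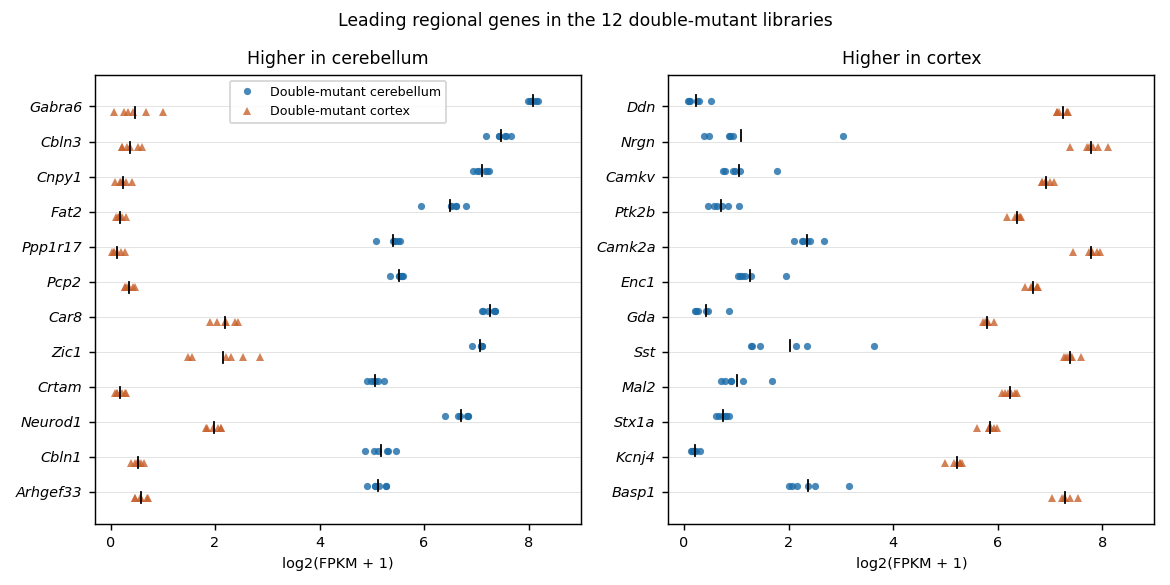
Level on the log2(FPKM + 1) scale (horizontal) of the 12 genes most shifted to cerebellum (left) and the 12 most shifted to cortex (right), 1 point per double-mutant library, circles for cerebellum and triangles for cortex, with black bars at the means. Gabra6 sits between 251 and 288 FPKM in cerebellum and at 1.003 FPKM or less in cortex, and Ddn between 139.8 and 162 FPKM in cortex and at 0.424 FPKM or less in cerebellum.

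The cell type lists separated by region. Of 19 granule neuron genes tested, 18 passed both thresholds higher in cerebellum and 1 higher in cortex, with a list median of 3.18 beside 0.11 over all genes. The exception, Slc17a7, encodes a vesicular glutamate transporter that granule neurons share with cortical projection neurons. It was named after its values were seen, at 36.8 to 59.2 FPKM in cerebellum and 124 to 167 FPKM in cortex (log2 difference -1.60). Of 21 Purkinje cell genes tested, 16 passed higher in cerebellum and 1, Itpr1, higher in cortex (median 2.09). The other 4 did not pass both thresholds, and without double mutant 4 a second gene, Foxp2 (-0.99 over the 6 mice), which layered cortical neurons also express, passed higher in cortex. In each of these 2 lists, 5 genes reached 1 FPKM in 1 region alone.

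Smaller cerebellar populations were also represented. Unipolar brush cells are excitatory interneurons of the granular layer, and the 3 of their 4 listed genes that were tested passed higher in cerebellum, 2 of them reaching 1 FPKM in cerebellum alone. Svep1 was at 6.18 to 8.62 FPKM in cerebellum and 0.140 to 0.291 FPKM in cortex, Otx2 (log2 difference 2.03) and Eomes (1.75) encode transcription factors, and Otx2 is also a choroid plexus gene. Of 6 cerebellar inhibitory interneuron genes tested, 3 passed higher in cerebellum and 1 higher in cortex, and 2 of the 6 reached 1 FPKM in 1 region alone. Tfap2b (2.45), a transcription factor of inhibitory precursors, Kit (1.73), a receptor of molecular layer interneurons, and Slc6a5 (1.38), the glycine transporter of Golgi cells, were higher in cerebellum. Grm2 (-1.49), a metabotropic glutamate receptor of Golgi cells that forebrain neurons also use, was higher in cortex.

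Bergmann glia are the radial astrocytes that sheathe Purkinje cell dendrites. Of 10 genes listed for them, 6 passed higher in cerebellum and 0 higher in cortex, with a median of 1.34. A2m, a protease inhibitor, was at 19.3, 21.4 and 24.4 FPKM in cerebellum and 0.381, 0.915 and 1.43 FPKM in cortex, without overlap (log2 difference 3.58, SE 0.12, adjusted p = 2.95e-10). Gdf10 (3.12), a secreted factor of the TGF-beta family, Timp4 (2.14), a metalloprotease inhibitor, and Gria4 (1.70), an AMPA receptor subunit, followed. Among 16 general astrocyte genes, 5 passed higher in cerebellum and 2 higher in cortex (median 0.53). Agt, which encodes angiotensinogen, had a log2 difference of 2.59 and Agxt2l1, a phospholyase gene, one of 2.10. Slc1a2, the glutamate transporter of forebrain astrocytes, had one of -1.83.

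In cortex, 15 of 16 excitatory neuron genes passed both thresholds higher than in cerebellum (median -2.97). Of the 16, 6 reached 1 FPKM in 1 region alone. The remaining gene, Neurod2, ran the other way, at 22.0 to 28.7 FPKM in cerebellum and 11.5 to 15.4 FPKM in cortex (log2 difference 0.82, adjusted p = 3.46e-07). Lmo3 (-4.02), a transcriptional cofactor, and Slc30a3 (-3.84), the zinc transporter of synaptic vesicles, were among the 15. Of 18 cortical layer genes, 11 passed higher in cortex and 3 higher in cerebellum (median -1.31), and 6 of the 18 reached 1 FPKM in 1 region alone. Rasgrf2, a Ras exchange factor of upper layer neurons, had a log2 difference of -3.82 and Calb1, a calcium buffer that Purkinje cells also hold, one of 2.31.

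Of 15 cortical interneuron genes tested of 19 listed, 11 passed higher in cortex and 1 higher in cerebellum (median -1.95), and 7 of the 15 reached 1 FPKM in 1 region alone. The exception was Pvalb, named after its values were seen, a calcium buffer that Purkinje cells and cerebellar interneurons also express. It was at 338 to 389 FPKM in cerebellum and 33.1 to 43.4 FPKM in cortex (log2 difference 3.23). The peptides marked the reverse direction: Vip was at 0 to 0.758 FPKM in cerebellum and 17.4 to 25.8 FPKM in cortex (-4.33), and Npy at 3.90 to 7.69 FPKM and 52.3 to 81.1 FPKM in the same order (-3.35). Over a list of 14 neuropeptide genes tested of 16 listed, 11 passed higher in cortex and 0 in cerebellum (median -2.66), and 7 of the 14 reached 1 FPKM in 1 region alone.

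Genes of neighbouring regions were read as well. Of 10 striatal genes tested, 7 passed higher in cortex (median -2.43), and 5 of the 10 reached 1 FPKM in 1 region alone, which fixed their direction. Drd1a, a dopamine receptor of striatal neurons, was at 0.0415 to 0.150 FPKM in cerebellum and 9.72 to 16.4 FPKM in cortex (log2 difference -3.76). The summed FPKM of the 11 listed genes was 162 to 275 in double-mutant cortex and 232 to 265 in control cortex. Of 5 thalamic genes tested, 3 were called higher in cortex, beside 32.2% of all genes, and 0 passed both thresholds. Without double mutant 4 there were 2 called higher in cortex and 1 past both thresholds higher in cerebellum. Of 7 hippocampal genes, 1 passed higher in cerebellum and 4 higher in cortex, and 3 of the 7 reached 1 FPKM in 1 region alone. The part of these neighbouring regions in the difference was not tested.

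Of the non-neuronal lists, microglia moved together. All 15 tested microglial genes were called higher in cortex, beside 32.2% of all genes, with a median of -0.70. Of the 15, 1, P2ry12, passed both thresholds (2 genes without double mutant 4 and 2 without double mutant 6). P2ry12, a purinergic receptor, was at 6.65, 7.15 and 8.51 FPKM in cerebellum and 14.7, 15.6 and 19.1 FPKM in cortex, without overlap (log2 difference -1.05, SE 0.06, adjusted p = 3.57e-08). Tmem119, another microglial surface protein, had a log2 difference of -0.92. Of 10 activated microglia genes, Spp1 (1.81), which encodes osteopontin, passed higher in cerebellum and Lpl (-1.98), lipoprotein lipase, higher in cortex, both genes that neurons also express. That is 1 of 10 on each side, near the 6.8% and 8.56% of all genes.

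Oligodendrocyte genes leaned to cerebellum, with 12 of 15 called higher there and 1 higher in cortex (median 0.36), beside 47.7% and 32.2% of all genes. Only Klk6, a myelin-associated protease, passed both thresholds, at 6.06 to 9.25 FPKM in cerebellum and 0.468 to 1.72 FPKM in cortex (log2 difference 2.01). The exception was Opalin (-0.63), a myelin membrane protein. Of 8 precursor genes, 7 were called higher in cortex, beside 32.2% of all genes, and 1, the orphan receptor gene Gpr17 (-1.08), passed both thresholds there. Of 15 vessel genes, 8 were called higher in cerebellum, near the 47.7% of all genes, and none passed both thresholds (median 0.24).

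Choroid plexus genes were called higher in cerebellum for 8 of 9 tested, beside 47.7% of all genes. Of the 9, 3 passed both thresholds (2 without double mutant 4 and 2 without double mutant 6). The 3 were Otx2, Folr1 (1.01), a folate receptor, and Ttr (1.26). Ttr, the thyroxine carrier that choroid plexus makes, was at 110.0 FPKM in the cerebellum of double mutant 2 and at 705 to 1147 FPKM in the other 5, against 189 to 355 FPKM in cortex. The 18 housekeeping genes had a median of -0.07, with 0 past both thresholds higher in cerebellum and 1, Ywhaz, higher in cortex (-1.03).

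**Figure D2:**
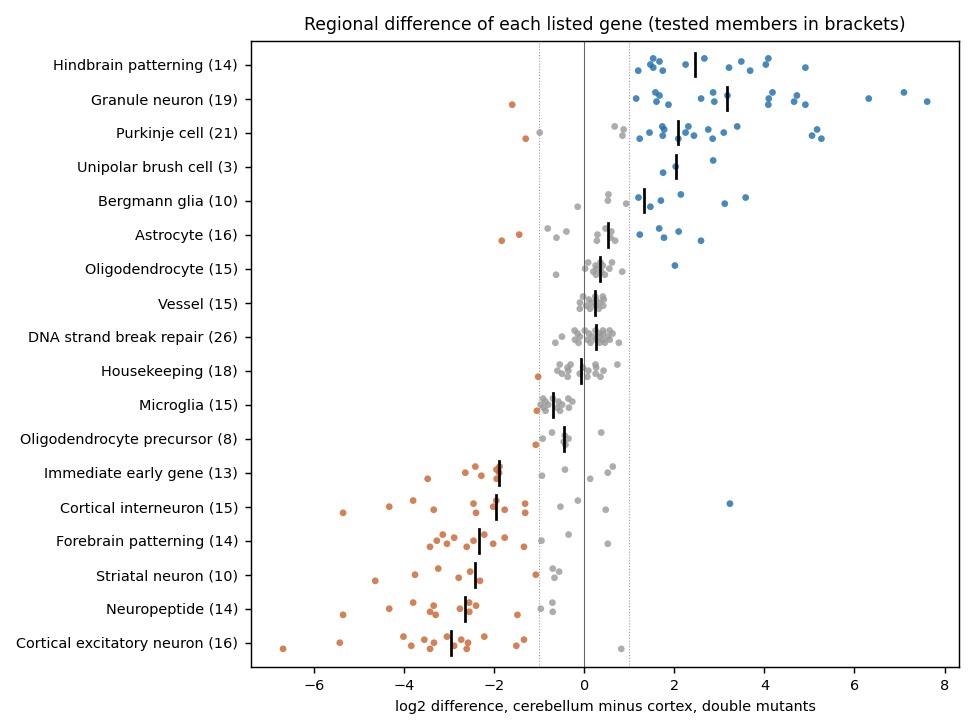
Log2 difference, cerebellum minus cortex, of each tested gene in the cell type and pathway lists in double mutants, 1 point per gene, in colour beyond an absolute value of 1, with the list median as a bar and the number of genes tested in brackets. The granule neuron genes lie around a median of 3.18 and the cortical excitatory neuron genes around -2.97, beside a median of 0.11 over all genes.

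Position along the neural tube is set early by transcription factors that many adult neurons go on expressing. Of 23 hindbrain and cerebellar patterning genes, 14 were tested, and all 14 passed both thresholds higher in cerebellum, with a median of 2.46. En2, a homeobox gene of the midbrain-hindbrain border, was at 14.2, 16.3 and 19.7 FPKM in cerebellum and 0.0523, 0.0813 and 0.111 FPKM in cortex (log2 difference 4.03, SE 0.07, adjusted p = 4.17e-12). Zic2 (4.09) and the homeobox gene Meis1 (3.68) followed Zic1. Of 21 forebrain patterning genes, 14 were tested, 11 passed higher in cortex and 0 higher in cerebellum (median -2.34). In each list 11 of the 14 had passed the filter through 1 region alone, and such a gene had to be higher in that region.

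The summed FPKM of the 21 listed forebrain genes was 75.3 to 96.1 in cerebellum and 129.7 to 152 in cortex, and 12 of the 21 were under 0.1 FPKM in each cerebellum library. Lhx2, a LIM homeobox gene of the cortical primordium, was at 0 to 0.195 FPKM in cerebellum and 7.68 to 11.3 FPKM in cortex, and Bcl11b, a zinc finger factor of deep layer neurons, at 0.0587 to 0.245 FPKM and 9.19 to 11.6 FPKM in the same order. Fezf2 (log2 difference -3.14) and Tbr1 (-3.05) specify deep layer neurons and had the same direction.

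Gene families split between the regions by member. The Neurod family of basic helix-loop-helix factors drives neuronal differentiation. Neurod1 was at 84.0, 107 and 114 FPKM in cerebellum and 2.55, 3.02 and 3.35 FPKM in cortex (log2 difference 4.72, SE 0.08, adjusted p = 3.21e-12). Neurod6 was at 1.75, 2.31 and 2.70 FPKM in cerebellum and 26.6, 32.2 and 43.3 FPKM in cortex (-3.34, SE 0.07, adjusted p = 1.83e-11). Neither gene overlapped between regions. Neurod4, Neurog1 and Neurog2 were under 0.14 FPKM in each of the 12 libraries and were not tested.

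Cerebellins are secreted proteins that link presynaptic neurexins to delta glutamate receptors. Cbln1 and Cbln3 were higher in cerebellum, as given above, and Cbln2 (log2 difference -3.56) and Cbln4 (-1.70) were higher in cortex. Of these 4 genes, 3 reached 1 FPKM in 1 region alone, which fixed their direction. Cbln2 was at 0, 0.0468 and 2.27 FPKM in cerebellum, where the highest value was again double mutant 4, and at 11.5, 14.2 and 16.8 FPKM in cortex. Grid1, a delta receptor, was at 3.55 to 4.32 FPKM in cerebellum and 8.78 to 9.84 FPKM in cortex (-1.04).

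The subunits of the GABA-A receptor, the chloride channel of fast inhibition, were all called, beside 79.8% of all genes. After rescaling to the same median, 1 of them was not called. Of 13, 4 were higher in cerebellum and 9 higher in cortex, beside 47.7% and 32.2% of all genes. Past both thresholds were 2 and 6 in the same order, beside 6.8% and 8.56% of all genes. Of the 13, 2 reached 1 FPKM in 1 region alone, which fixed their direction. Gabra6 and Gabrd (log2 difference 1.58), which together form extrasynaptic receptors of granule neurons, were the 2 past both in cerebellum. Gabra5 was at 0.176, 0.309 and 0.796 FPKM in cerebellum and 19.5, 21.0 and 22.9 FPKM in cortex (-3.96). Gabra3 (-2.68), Gabrg3 (-2.24), Gabra4 (-2.06), Gabra2 (-1.15) and Gabrb1 (-1.15) were also past both in cortex. Gabrb2, a subunit of synaptic receptors, differed little (0.23).

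NMDA receptor subunits divided likewise. Of 8 NMDA and delta receptor genes tested, 1 reached 1 FPKM in 1 region alone. Grin2c, the subunit of mature granule neurons, was at 30.8, 52.4 and 61.4 FPKM in cerebellum and 5.14, 5.91 and 6.31 FPKM in cortex (log2 difference 2.86). Grin2b, a forebrain subunit, was at 2.37, 2.61 and 2.84 FPKM in cerebellum and 48.0, 50.1 and 54.2 FPKM in cortex (-3.84, SE 0.04, adjusted p = 4.12e-13). Grin2a (-1.22) was higher in cortex, and Grin1, the obligatory subunit, was at 21.3 to 35.1 FPKM in cerebellum and 32.9 to 37.7 FPKM in cortex, with overlap (-0.23, adjusted p = 0.00679).

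Part of the excitation of Purkinje cells by parallel fibres runs through the metabotropic receptor mGluR1, phospholipase C, IP3 and the IP3 receptor Itpr1. Itpr1 releases calcium from the endoplasmic reticulum. Of 11 genes of this pathway tested, 5 passed both thresholds higher in cerebellum and 4 higher in cortex. Plcb4 (log2 difference 2.09), the phospholipase of Purkinje cells, and Homer3 (3.40), a scaffold between mGluR1 and Itpr1, were among those higher in cerebellum. Grm5 (-4.05), the related forebrain receptor, and Homer1 (-1.95) were higher in cortex.

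Itpr1 alone among the Purkinje cell genes passed the thresholds toward cortex. It lies on chromosome 6, 108163112 to 108501103, plus strand (NCBIM37). It was at 33.6, 40.0 and 48.1 FPKM in double-mutant cerebellum and at 95.4, 99.0 and 106 FPKM in double-mutant cortex. The groups did not overlap, and Itpr1 was lower in cerebellum in each of the 6 mice, by log2 differences between -1.63 and -0.99 (fitted -1.30, SE 0.07, adjusted p = 2.65e-08). In controls, cerebellum was at 232 to 348 FPKM and cortex at 84.8 to 92.7 FPKM (log2 difference 1.63).

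Genes of calcium release went both ways, with 4 of 11 past both thresholds higher in cerebellum and 2 higher in cortex, Itpr1 included. Of the 11, 2 reached 1 FPKM in 1 region alone. Car8, which lowers the affinity of Itpr1 for IP3, was at 137 to 164 FPKM in cerebellum and 2.76 to 4.41 FPKM in cortex. Atp2a3, a calcium pump of the endoplasmic reticulum, had a log2 difference of 3.41, Itpr3 one of 1.36 and Itpkb, a kinase that consumes IP3, one of 1.46. Itpka, the related kinase of forebrain spines, had -2.02. Ryr2, a ryanodine receptor, was at 29.0, 32.8 and 34.8 FPKM in cerebellum and 35.2, 38.1 and 40.7 FPKM in cortex, again without overlap and higher in cortex (-0.23, SE 0.05, adjusted p = 0.00095). Itpr2 (0.10, adjusted p = 0.22) and Atp2a2 (-0.10, adjusted p = 0.167) were not called.

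Genes that the study names for altered splicing, expression or polymerase binding, most of them as Purkinje cell genes, were set out in the same way. The study chose them partly on these samples and partly on other libraries of the same genotype, so their direction is not independent evidence. Of 15, 9 were called higher in cerebellum and 5 higher in cortex, beside 47.7% and 32.2% of all genes, and 1, Stxbp2, was not called (log2 difference 0.09, adjusted p = 0.208). Among them Chn2 (4.18), a Rac regulator, Camk4 (1.26), a calcium-activated kinase, and Car8 passed both thresholds higher in cerebellum. The study names Chn2 and Camk4 as granule cell genes that retained introns, in a cell type where it found no significant retention otherwise. Cntn4 (-0.95), a cell adhesion protein, and Lynx1 (-0.62), a nicotinic receptor modulator, were higher in cortex. Of 40 hereditary ataxia genes tested of 44 listed, 8 passed higher in cerebellum and 3 higher in cortex, beside 6.8% and 8.56% of all genes. The list median was 0.42, and Pdyn, which encodes prodynorphin, was the lowest at -3.30.

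DNA repair genes differed little between the regions. Of 26 strand break repair genes tested, 15 were called higher in cerebellum and 5 higher in cortex (47.7% and 32.2% of all genes), with a median of 0.26, and none passed both thresholds. Tdp2, which frees trapped topoisomerase 2, was at 14.6 to 16.7 FPKM in cerebellum and 8.17 to 9.41 FPKM in cortex (log2 difference 0.77). Apex1, the abasic site nuclease, had a log2 difference of -0.64 and Xrcc6, which encodes Ku70, one of 0.63. Among 16 p53 target genes, Bbc3 (1.20), the apoptosis gene PUMA, passed higher in cerebellum and Plk2 (-2.72), also an activity-induced kinase of forebrain neurons, higher in cortex. That is 1 of 16 on each side, near the 6.8% and 8.56% of all genes.

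Immediate early genes, which neurons induce on firing, were higher in cortex for 8 of 13 tested past both thresholds and for 0 in cerebellum (median -1.89), and 2 of the 13 reached 1 FPKM in 1 region alone. Egr3 was at 0, 0.00888 and 0.105 FPKM in cerebellum and 8.04, 10.6 and 12.8 FPKM in cortex. Arc (-2.64), Egr1 (-2.42) and Junb (-2.29) varied widely within cortex, Arc at 15.0 to 63.0 FPKM. Reactive astrocyte genes passed higher in cerebellum for 2 of 8 tested (3 without double mutant 4), beside 6.8% of all genes. The filament gene Vim led them, at 44.1 to 56.3 FPKM in cerebellum and 7.67 to 10.1 FPKM in cortex (2.41). Of the 8, 1 reached 1 FPKM in 1 region alone.

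The same regional contrast in controls was then set beside that of the double mutants, in 1 fit of 20 libraries and 13249 genes. In controls, 710 genes (5.36%) passed both thresholds higher in cerebellum and 917 (6.92%) higher in cortex. The double-mutant genes past both thresholds were those of the fit of the 12 double-mutant libraries. Of the 710, 582 (82.0%) passed on the same side in double mutants, which is 66.1% of the 881 double-mutant cerebellum genes. Of the 917, 795 (86.7%) did, which is 71.8% of the 1108 double-mutant cortex genes. The regional log2 differences of the 2 genotypes had a Pearson correlation of 0.91 across genes, which are not independent replicates.

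The SD of the regional differences over the 13249 genes was 0.86 in double mutants and 0.75 in controls. The difference between the 2 regional contrasts (the interaction, double mutant minus control) was called for 3659 genes, 2056 positive (15.5% of genes) and 1603 negative (12.1%), and exceeded 1 in absolute value for 150 of them. These counts were 2983 and 144 without double mutant 6, and 4091 and 177 without double mutant 4. Without control cortex 4, the library with the high summed FPKM, they were 3402 and 143.

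Markers of neighbouring tissue moved with the genotype. The summed FPKM of 8 pituitary genes was 1.42 to 10.1 in double-mutant cerebellum and 0.868 to 2.31 in double-mutant cortex, against 10.03 to 155 in control cerebellum and 5.44 to 88.7 in control cortex. That of 14 brain stem genes was 1.61 to 3.60 in double-mutant cerebellum against 7.28 to 17.9 in control cerebellum, with 8 of the 14 under 0.1 FPKM in each double-mutant cerebellum library. That of 8 thalamic genes was 17.9 to 55.8 in double-mutant cortex against 62.4 to 70.3 in control cortex. Gabra6 was at 15.2 FPKM in 1 control cortex library and at 0.846 FPKM or less in the other 3. The part of these differences in the interaction was not tested.

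**Figure D3:**
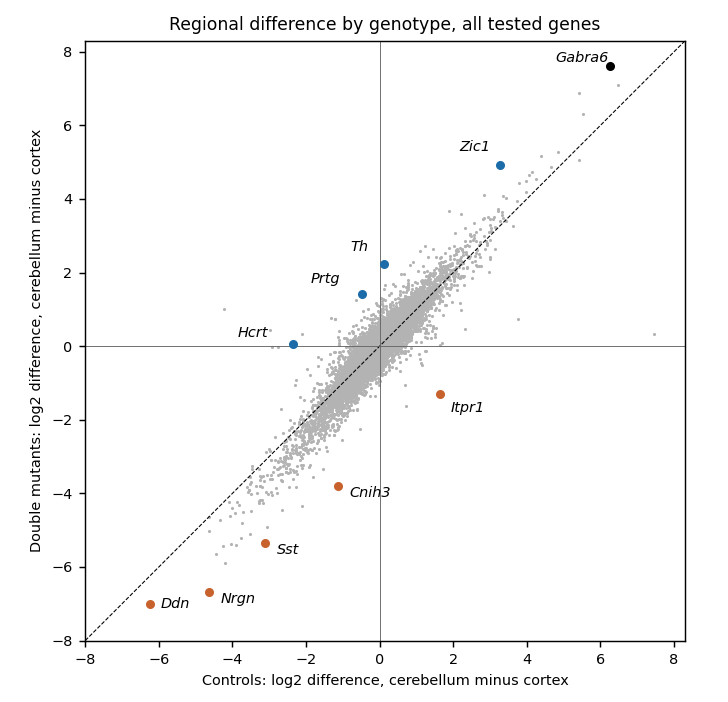
Regional log2 difference (cerebellum minus cortex) in double mutants on the vertical axis against that in controls on the horizontal axis, 1 grey point per gene, with labelled genes in blue (interaction called positive), orange (called negative) or black (not called). The points follow the diagonal (r = 0.91), and Itpr1 lies at -1.30 in double mutants and 1.63 in controls. Gm10654 (-12.54 in controls, -0.14 in double mutants) lies outside the axes.

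Granule neuron and Purkinje cell lists kept their direction in double mutants. The granule neuron median was 3.18 in double mutants and 2.83 in controls, with the interaction called positive for 8 of 19 genes and negative for 1, Slc17a7. The Purkinje cell median was 2.09 in double mutants and 1.63 in controls, with 7 of 21 positive and 1, Itpr1, negative. The control median was the value of Itpr1 itself. Gene by gene, the median interaction was 0.09 in the Purkinje cell list and 0.44 in the granule neuron list, beside 0.03 over all genes. Of all genes, 15.5% had interactions called positive and 12.1% negative. Without double mutant 4 the Purkinje cell counts were 8 and 4, and without double mutant 6 they were 4 and 1. Pcp2 was at 39.8 to 47.6 FPKM in double-mutant cerebellum and 27.2 to 44.4 FPKM in control cerebellum (interaction 0.79, adjusted p = 0.00193). For Car8 the interaction was not called (-0.36, adjusted p = 0.115).

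Hindbrain patterning genes had positive interactions for 10 of 14 genes and negative for 0, and forebrain patterning genes positive for 1 and negative for 8 of 14. Cortical excitatory neuron genes had negative interactions for 11 of 16. Zic1 (chromosome 9, 91252896 to 91260648, minus strand) was at 121, 135 and 136 FPKM in double-mutant cerebellum and 1.80, 3.76 and 6.22 FPKM in double-mutant cortex, against 85.2 to 105 FPKM in control cerebellum and 7.78 to 10.1 FPKM in control cortex (interaction 1.63, SE 0.26, adjusted p = 0.000178).

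The listed neuropeptides had interactions called negative for 11 of 15 genes and positive for 0 (9 and 0 without double mutant 6). Other peptide genes outside the list, named after their values were seen, had positive interactions: Hcrt (2.40), Pmch (0.80) and Uts2 (0.70). Vip was at 0 to 0.758 FPKM in double-mutant cerebellum and 17.4 to 25.8 FPKM in double-mutant cortex, against 1.36 to 3.46 FPKM in control cerebellum and 13.4 to 16.5 FPKM in control cortex (interaction -2.22, SE 0.24, adjusted p = 3.25e-06). Sst (-2.23) and Npy (-1.82) had the same pattern. For Npy, double-mutant cerebellum was at 3.90 to 7.69 FPKM and double-mutant cortex at 52.3 to 81.1 FPKM, against 8.25 to 15.9 FPKM in control cerebellum and 29.0 to 37.6 FPKM in control cortex. Nrgn, at 3.10 to 5.71 FPKM in control cerebellum, and the brain stem sum given above moved with these values, and their part was not tested.

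Oligodendrocyte genes turned over as a list. Their median was 0.36 in double mutants and -0.36 in controls, and the interaction was called positive for 13 of 15 and negative for 0. The summed FPKM of the 15 genes was 527 to 847 in double-mutant cortex and 995 to 1134 in control cortex, without overlap. In cerebellum it was 886 to 953 in double mutants and 727 to 892 in controls, with overlap. What lowered the sum in double-mutant cortex was not tested. Reactive astrocyte genes had positive interactions for 5 of 9, beside 15.5% of all genes. Gfap, the astrocyte filament gene, named after its values were seen, was at 78.8, 90.7 and 97.7 FPKM in double-mutant cerebellum and 52.8, 55.3 and 68.3 FPKM in double-mutant cortex, against 26.9 to 51.1 FPKM and 38.8 to 47.8 FPKM in control cerebellum and control cortex (interaction 0.86, adjusted p = 0.00108).

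A change of side was rare among large differences. Past both thresholds on opposite sides in the 2 genotypes were 2 genes, with double mutants read in the fit of 12 libraries and controls in that of 20. They were Itpr1 and the uncharacterised Gm17545, which was named after its values were seen (log2 difference 1.001 in double mutants and -4.23 in controls). With any size of difference, 164 genes in the fit of 20 libraries were called with opposite signs and a called interaction, 107 of them higher in cerebellum in double mutants. For Itpr1 the interaction was -2.93 (SE 0.13, adjusted p = 5.28e-12), and Ryr2 (-0.44, SE 0.08, adjusted p = 0.000558) also changed side, with 33.1 to 37.7 FPKM in control cerebellum and 27.9 to 32.6 FPKM in control cortex.

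Prtg (chromosome 9, 72655081 to 72765098, plus strand) encodes protogenin, an immunoglobulin superfamily receptor of the embryonic nervous system. It was at 4.60, 5.30 and 5.92 FPKM in double-mutant cerebellum and 1.10, 1.33 and 1.54 FPKM in double-mutant cortex, against 0.420 to 0.477 FPKM in control cerebellum and 0.879 to 1.07 FPKM in control cortex. The order of the regions was reversed, with a log2 difference of 1.43 in double mutants and -0.47 in controls (interaction 1.89, SE 0.09, adjusted p = 2.29e-11). Igfbp5, an insulin-like growth factor binding protein, changed side the other way, at 8.57 to 11.3 FPKM in double-mutant cerebellum and 15.2 to 17.4 FPKM in double-mutant cortex, against 18.6 to 26.4 FPKM and 13.7 to 17.0 FPKM in control cerebellum and control cortex (-1.20, adjusted p = 8.56e-07). Gatm (0.82), which makes the creatine precursor, and Polr2a (0.83), the large subunit of RNA polymerase II, changed side toward cerebellum in double mutants.

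Other genes grew apart without changing side. Th (chromosome 7, 150078657 to 150117033, minus strand), tyrosine hydroxylase of catecholamine synthesis, was at 4.85, 6.50 and 8.10 FPKM in double-mutant cerebellum and 0.272, 0.601 and 0.951 FPKM in double-mutant cortex, against 2.01 to 2.97 FPKM in control cerebellum and 1.78 to 2.74 FPKM in control cortex. The regions did not overlap in double mutants and overlapped in controls (log2 differences 2.23 and 0.11, interaction 2.12, SE 0.18, adjusted p = 1.17e-07). Cnih3, an AMPA receptor auxiliary protein, was at 0.357, 0.483 and 1.24 FPKM in double-mutant cerebellum and 17.8, 21.0 and 24.3 FPKM in double-mutant cortex, against 5.55 to 7.03 FPKM in control cerebellum and 14.8 to 15.2 FPKM in control cortex (-2.67, SE 0.15, adjusted p = 2.09e-10). Il22, a cytokine gene, was at 8.73 to 16.1 FPKM in double-mutant cerebellum and at 0.111 FPKM or less in double-mutant cortex, against 1.28 to 4.61 FPKM in control cerebellum and at most 0.0819 FPKM in control cortex (1.78, adjusted p = 0.000117).

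**Figure D4:**
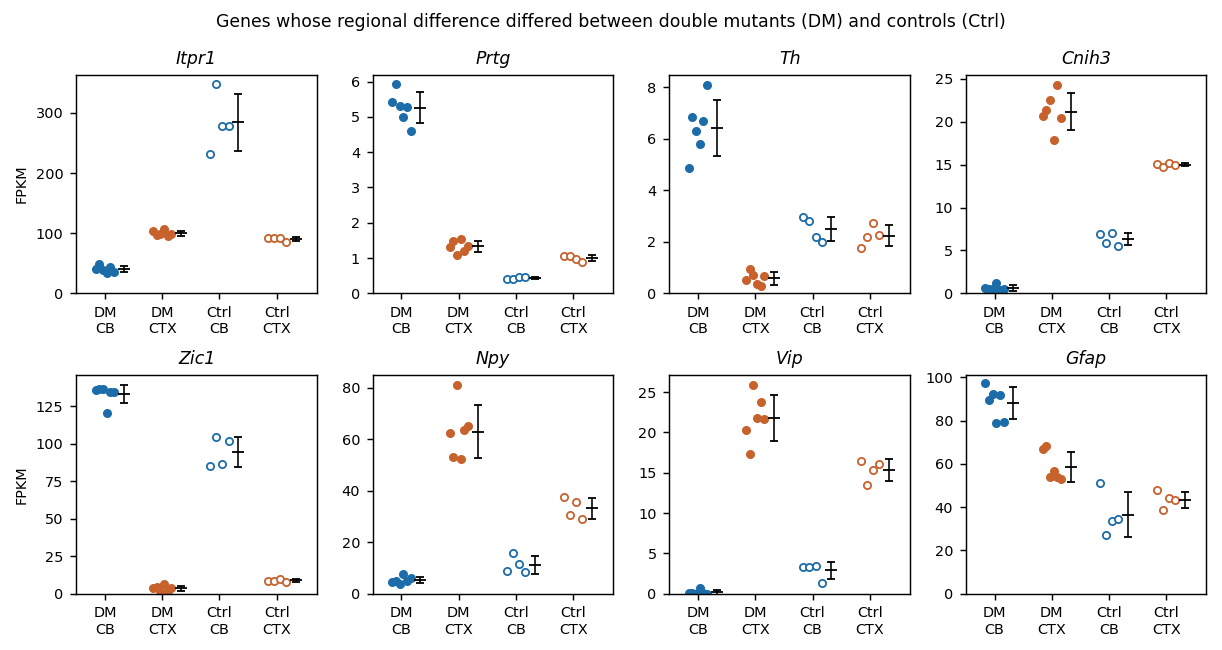
FPKM, on linear axes from 0, of 8 genes in each cerebellum and cortex library of double mutants (filled) and controls (open), with bars for the mean ± SD. Itpr1 lies at 33.6 to 48.1 FPKM in double-mutant cerebellum and 95.4 to 106 FPKM in double-mutant cortex, against 232 to 348 FPKM in control cerebellum and 84.8 to 92.7 FPKM in control cortex, and Prtg reverses the other way.

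The pairing by mouse allowed the differences among the double mutants to be read in both regions at once. In mice 1 to 5, 93 of 12948 genes (0.718%) differed between mice by a moderated F test (adjusted p below 0.05), and 139 did with mouse 6 included. The count was 38 without mouse 1, 40 without mouse 5 and 164 without mouse 4. The smallest p-values belonged to Y-linked genes: Ddx3y was at 24.7 to 28.9 FPKM in the cerebellum and 19.9 to 21.5 FPKM in the cortex of mice 2, 3 and 5, and at 0.103 FPKM or less in both regions of mice 1 and 4 (adjusted p = 2.64e-08). Uty, Eif2s3y and Kdm5d followed it. None of the 4 was called between regions over the 6 mice, and all 4 were called higher in cerebellum without mouse 6.

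Apart from the Y chromosome, single mice stood out in both regions. Rpl34, a ribosomal protein gene, was at 15.2 and 11.3 FPKM in the cerebellum and 12.4 and 13.8 FPKM in the cortex of mice 1 and 5, and at 38.3 to 111 FPKM and 39.8 to 101 FPKM in the cerebellum and cortex of the others (adjusted p = 9.65e-07). Near-identical copies of Rpl34 make its assignment uncertain. Fos, an immediate early gene, was at 2.26 FPKM in the cerebellum and 3.99 FPKM in the cortex of mouse 2, against 9.88 to 17.7 FPKM and 13.5 to 21.7 FPKM in the others (adjusted p = 0.000396). Hspa5, the chaperone BiP of the endoplasmic reticulum, was at 109.7 FPKM in the cerebellum and 109 FPKM in the cortex of mouse 4, against 60.5 to 75.0 FPKM and 62.3 to 79.7 FPKM in the others (adjusted p = 0.00185).

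Hjurp, a centromere chaperone gene, was at 3.68 FPKM in the cerebellum and 1.92 FPKM in the cortex of mouse 1, against 4.58 to 15.7 FPKM and 3.36 to 9.15 FPKM in the others (adjusted p = 0.000277). Pla2g4e, a cytosolic phospholipase gene, was also lowest in mouse 1, at 3.06 and 2.30 FPKM. Gdpd3, a lysophospholipase D gene, was at 2.47 FPKM in the cerebellum and 0.529 FPKM in the cortex of mouse 5, against 5.55 to 9.35 FPKM and 1.76 to 3.99 FPKM in the others (adjusted p = 0.00085). The call was lost for Hjurp and Pla2g4e without mouse 1, for Fos without mouse 2, for Hspa5 without mouse 4 and for Gdpd3 without mouse 5.

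**Figure D5:**
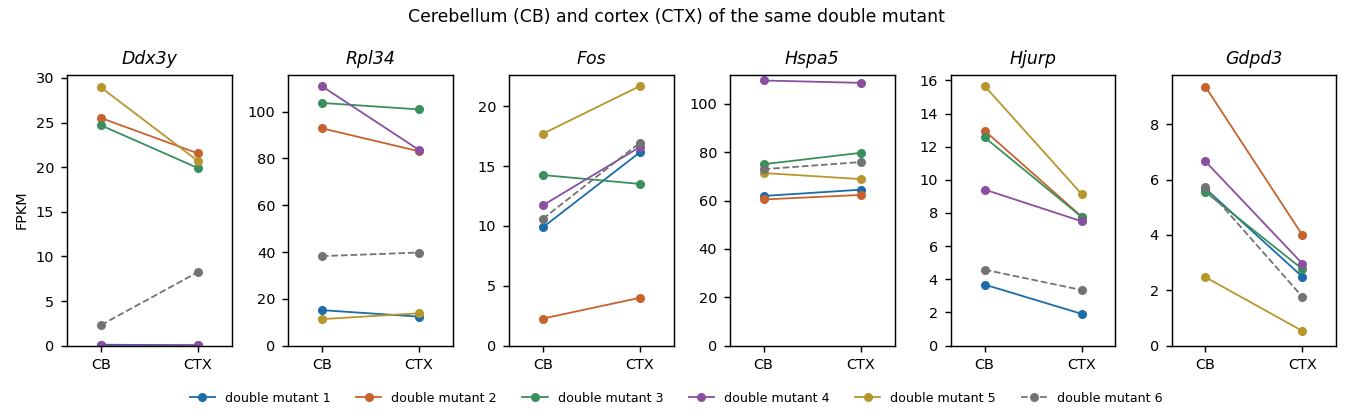
FPKM, on linear axes from 0, of 6 genes in the cerebellum and cortex of each double mutant, a line joining the 2 regions of 1 mouse, mouse 6 dashed. Fos is lowest in both regions of mouse 2 (2.26 and 3.99 FPKM) and Hspa5 highest in both regions of mouse 4 (109.7 and 109 FPKM).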

How the data were processed

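Total RNA was extracted with TRIzol, and stranded libraries depleted of ribosomal RNA were sequenced on an Illumina instrument. The authors mapped reads to mm9 with BWA 0.5.10 and counted them with HTSeq, whose version is not given in the sources used here. The deposited values are FPKM made by the authors, 1 column per library and 22562 gene symbols, with no counts. The part that depth or low counts played in any value could therefore not be computed.

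Values were transformed as log2(FPKM + 1), so that the differences of low genes are understated. Linear models came from limma 3.58.1 in R 4.3.3, moderated by empirical Bayes with a trend on intensity, and two-sided p-values were adjusted by Benjamini-Hochberg over all genes tested. The 12 double-mutant libraries entered a fit with mouse as a block. Libraries with the same TS code were taken as from 1 mouse. As a check, each double-mutant library deviated from its group mean most like the other library of its number (r of 0.231 to 0.474, 6 of 6 best with their own, highest other 0.243). Control pairs had r of 0.114 to 0.293, although their labels carry separate codes. The controls joined in a fit of 20 libraries and 4 groups, without the block, on 13249 genes with at least 1 FPKM in 6 double-mutant or 4 control libraries. Where nothing else is said, n was 6 libraries per region in double mutants and 4 in controls. Differences between mice were tested by a moderated F test on the libraries of mice 1 to 5. The script was tested on simulated data. Figures and tables were made in Python 3.11.15 with pandas 2.3.3 and matplotlib 3.10.9.

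Genes with an adjusted p below 0.05 were called, and a called gene passed both thresholds when its absolute log2 difference also exceeded 1. Genes were named by rule: the 12 highest and 12 lowest without overlap, up to 4 called genes per list by absolute difference, all members of the families, Atm, Aptx and the loci the study names, the 8 highest and 8 lowest called interactions, 10 called on opposite sides, and the 10 smallest p-values between mice, with symbols without a name passed over. The members, lists and tests were chosen with earlier results of these data known, and lists share genes. Xist was not analysed here, and some other listed genes are not reported here. Alternatives were the block, pseudocount, filter, scaling, trend and leaving out each mouse or control library in turn. The other 4 libraries of the series, from single mutants, were not used here. P-values measure the spread between these libraries.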

Additional observations from a re-analysis of the deposited data

Results flagged for a closer look

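In 7 of 52 groups of 6 libraries (the 24 most shifted genes, Itpr1 and Ddx3y in each region), the highest or lowest double-mutant library lay far from the rest. Chance alone gives this in about 1 in 20 groups. In the cerebellum of double mutant 4, Fat2 was lowest at 60.1 FPKM and Zic1 lowest at 121 FPKM, while Nrgn (7.18 FPKM), Camkv (2.42 FPKM) and Enc1 (2.87 FPKM) were highest. In the cerebellum of double mutant 1, Ppp1r17 (32.8 FPKM) and Pcp2 (39.8 FPKM) were lowest.

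Among the genes most shifted to either region and those named for their interaction, 39 had a called interaction. Those named for their interaction were chosen by that test, so the count is no result about them. Over all genes, 15.5% had interactions called positive and 12.1% negative. Among the extremes, the interaction (double mutant minus control, log2) was 2.12 for Th, 1.89 for Prtg, 1.78 for Il22 and 1.63 for Zic1, and -2.93 for Itpr1, -2.67 for Cnih3, -2.34 for Nts, -2.23 for Sst, -2.22 for Vip, -2.06 for Nrgn, -1.86 for Basp1 and -1.86 for Car9. Hcrt, the orexin gene of the hypothalamus, had 2.40, with 0 to 0.282 FPKM in double-mutant cerebellum and 0 to 0.105 FPKM in double-mutant cortex, against 0 to 0.0468 FPKM in control cerebellum and 2.72 to 6.03 FPKM in control cortex. Vmn2r29 (2.89), Ighg2c (2.72) and Clec3b (1.96) likewise had their highest medians in control cortex, at 17.5, 8.11 and 8.77 FPKM. Nts, a peptide of brain stem and hypothalamus, was at 0.0507 to 0.920 FPKM in double-mutant cerebellum and 2.89 to 7.12 FPKM in control cerebellum.

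Genes called on opposite sides had interactions of -1.20 for Igfbp5, 0.81 for Rasgrp3, 0.70 for Smok4a, -0.61 for Prelid1, 0.58 for Col19a1, 0.83 for Polr2a, 0.47 for Slc41a2 and 0.82 for Gatm. Of the genes most shifted to cerebellum, Cnpy1 had 1.44, Fat2 0.80, Pcp2 0.79, Cbln1 0.60, Neurod1 0.58 and Ppp1r17 0.43. Of those most shifted to cortex, Camkv had -1.68, Stx1a -1.58, Enc1 -1.51, Mal2 -1.45, Gda -1.35, Ptk2b -1.22, Camk2a -1.16, Ddn -0.77 and Kcnj4 -0.38. These genes were chosen for large differences in double mutants.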

How the results depend on the processing

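Of 181 counts recomputed under alternatives, 171 stayed within 1.5 times the reported count and 10 did not. Genes past both thresholds higher in double-mutant cerebellum numbered 1346 with a pseudocount of 0.01. With at least 1 FPKM required in all 12 libraries, 1294 passed both thresholds and 677 were higher in cortex, from fewer genes tested. Interactions above 1 numbered 436 with a pseudocount of 0.1, 478 with 0.01 and 55 with at least 1 FPKM in all 20 libraries. With mouse or number as a replicate block, interactions called numbered 4205 (4000 with an estimated correlation of 0.22), and genes called on opposite sides 254 (201), against 164. Without the block, the double-mutant regional contrast called 10016 genes. Leaving out libraries in turn gave 38 to 164 genes differing between mice, 9772 to 10557 regional calls, 1946 to 2029 past both thresholds, 2830 to 4091 interactions and 114 to 186 on opposite sides. Of 3485 named values, 27 lost and 17 gained a call, and 10 changed sign, none called: Atp2a2 between regions (0.0717 after quantile normalization), and the interactions of Cacnb4 (-0.0159 after rescaling to the same median, -0.00976 to 0.0604 leaving out libraries in turn), Cntn4 (-0.0613 to 0.0631) and Crtam (-0.05004 to 0.327). Gabra6 gained an interaction call without control cortex 1 (1.72, adjusted p = 0.0396). The causes were not tested. Unknown depth limits values near 0.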
